A study of Mus musculus with 38 samples.

Results

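The 10 protein-coding genes followed here encode partners of the nuclear envelope other than the lamins, the lamin B receptor and LAP2, and each was measured as a stretch of DNA: Lemd2, Lemd3, Ankle2, Banf1, Sun1, Sun2, Syne1, Syne2, Tor1aip1 and Zmpste24. They were taken by symbol from the LAP2B, LMNB1 and IGG gene tables, in which they are 10 of 78202 genes, and all 10 passed the filter on low values. What was measured is how much of each gene's body lay near LAP2B or LMNB1, not how much of its RNA or protein was made. No marker of a cell type can therefore be checked by its expression in these files.

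The nuclear envelope carries a meshwork of lamins under its inner membrane, and inner membrane proteins tie chromatin and the cytoskeleton to it. Proteins with a LEM domain (LEMD2, LEMD3, ANKLE2) bind BAF, the small DNA-bridging protein made from Banf1, and help the envelope to reform after mitosis. SUN proteins (SUN1, SUN2) of the inner membrane join nesprins (from Syne1 and Syne2) of the outer membrane in the LINC complex, which carries force between cytoskeleton and nucleus. LAP1, made from Tor1aip1, activates the torsin ATPases, and ZMPSTE24 is the protease that matures prelamin A. Genomic regions that touch the lamina are called lamina-associated domains and are mostly gene-poor and AT-rich.

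CUT&RUN releases the DNA close to an antibody's target with a nuclease bound to that antibody. It was run on 200000 cells per replicate of mouse embryonic stem cells in the naive state (kept in 2i and LIF) and of epiblast-like cells (EpiLCs, grown with FGF and Activin A and collected at 48 h). LAP2B, an inner membrane protein made from Tmpo, was mapped in 24 libraries of 8 groups of 3, namely WT, LBRKO (no lamin B receptor), TKO (no lamins) and QKO (neither lamins nor receptor) at each stage, and LMNB1 and the non-specific IGG background in WT cells, with 3 libraries each per stage. The WT and TKO cells are separate lines from littermates, LBRKO was edited from WT, and QKO is 1 surviving clone made from TKO, so the spread between libraries says nothing of the spread between clones or lines. Whether the replicates came from separate cultures is not given in the sources used here, and p-values measure the spread between libraries, which may be technical.

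Reads recovered came to 12028659 to 45689196 per library summed over genes, where a read in a bin of several genes counts for each, and the members held 14 to 11557 of them per library, least in Banf1 and most in Syne1. Coverage over the knocked-out genes did not go to 0, and a sum over a whole gene does not test a small deletion: on the relative scale defined below, Lbr was at 5.68 to 6.89 in naive LBRKO and 3.38 to 4.54 in naive WT libraries, and Lmna at 7.70 to 29.6 in naive TKO and 3.27 to 7.64 in naive WT libraries. The methods describe trisomy 8 in the TKO line and a subpopulation of WT cells with extra chromosomes 6 and 8, and no member lies on either. IGG was mapped in WT only, so a local copy number difference between the lines and a LAP2B difference cannot be told apart here.

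Deposited values carry a factor from yeast spike-in reads, and results on them are said to be on the spike-in scale. On the relative scale, which is used unless stated, each library is divided by its median tested gene, so that 1 is the median gene and a difference in total coverage drops out. Dividing by the library mean in its place moved the median change of all genes by 0.10, 0.28 and 0.29 in naive LBRKO, TKO and QKO cells and by 0.12 in QKO EpiLCs, and the members whose direction turns with it are named. A gene's value is a sum over the 1 kb bins it touches and grows with its length, so levels are compared between genes only per bin. Changes are differences in log2(value + 0.1 of the table median), which understates the change of low genes, tested two-sided with limma across all 70381 genes tested and called at a Benjamini-Hochberg adjusted p under 0.05.

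The LEM domain and BAF genes lie on 4 chromosomes (GRCm39, GENCODE M39). Lemd2 spans 14.9 kb at chr17:27408573-27423465 (minus strand), Lemd3 56.5 kb at chr10:120759304-120815816 (minus), Ankle2 25.7 kb at chr5:110378854-110404515 (plus) and Banf1 2.96 kb at chr19:5414660-5417614 (minus). Of the LINC genes, Sun1 spans 49.6 kb at chr5:139185970-139235606 (plus), Sun2 18.5 kb at chr15:79608271-79626768 (minus), Syne1 531 kb at chr10:4970266-5501482 (minus) and Syne2 293 kb at chr12:75864908-76157700 (plus). Tor1aip1 spans 32.4 kb at chr1:155880041-155912440 (minus) and Zmpste24 39.03 kb at chr4:120916433-120955459 (minus). Each interval is the whole gene body, with exons, introns and UTRs together. Every member shares bins with other annotated genes, and reads in a shared bin count for both. Banf1 covers 4 bins and shares 2 with Eif1ad, Tor1aip1 shares 12 of 33 with 4 genes, among them 2 with Tor1aip2, and Syne1 shares 102 of 532, most of them with a noncoding RNA on the other strand.

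The members differ in base composition. Banf1 (57.4% GC), Lemd2 (56.6%) and Sun2 (53.5%) lay at the 96.7th, 96.0th and 90.1st percentile of GC among genes tested, whose median was 45.3%. Sun1 had 47.8% and Syne2 44.6%, and the other 5 lay between 41.5% and 42.2%. The 250 bases before the start of the annotated canonical transcript are shown for Lemd2 and Sun2, where LAP2B was higher in naive TKO and QKO than in WT cells on the relative scale, and for Zmpste24, where it was lower. They were read from GRCm39 on the gene's strand, at chr17:27423466-27423715, chr15:79626769-79627018 and chr4:120955460-120955709, and capitals mark the GC box GGGCGG or its reverse complement CCGCCC, overlapping matches included. The Sun2 window overlaps the lncRNA Gm16576.
Lemd2: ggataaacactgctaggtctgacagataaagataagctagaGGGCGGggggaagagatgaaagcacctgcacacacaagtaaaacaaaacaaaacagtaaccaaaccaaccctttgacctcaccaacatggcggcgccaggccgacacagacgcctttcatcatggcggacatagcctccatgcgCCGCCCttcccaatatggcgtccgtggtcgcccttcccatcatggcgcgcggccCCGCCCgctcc
Sun2: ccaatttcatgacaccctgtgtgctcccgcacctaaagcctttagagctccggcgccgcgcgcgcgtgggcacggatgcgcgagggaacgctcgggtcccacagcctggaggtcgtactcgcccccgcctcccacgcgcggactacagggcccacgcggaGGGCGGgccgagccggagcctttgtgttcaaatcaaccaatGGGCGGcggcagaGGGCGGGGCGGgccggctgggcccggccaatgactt
Zmpste24: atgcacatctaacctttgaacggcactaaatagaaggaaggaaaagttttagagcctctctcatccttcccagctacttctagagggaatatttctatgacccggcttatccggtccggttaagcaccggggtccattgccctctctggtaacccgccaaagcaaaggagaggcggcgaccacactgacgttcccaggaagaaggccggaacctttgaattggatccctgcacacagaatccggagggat
Lemd2 held 3 matches, Sun2 4 and Zmpste24 0, with 16, 30 and 11 CpG dinucleotides. Of the 21757 windows of this kind in protein-coding genes, 36.3% held at least 1 match, and 6 of the 10 members did. A match is a description of these letters, and Syne1, where LAP2B was also lower, held 2.

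In naive WT cells the members ranged from nearly the least to among the most lamina-covered genes. Per 1 kb bin, mean LMNB1 coverage ran from 0.0645 of the library's median gene in Lemd2 to 0.352 in Zmpste24, a 5.46-fold span, while IGG ran from 0.128 to 0.221 over the members. In order of LMNB1 per bin, Zmpste24 lay at the 88.8th percentile of genes tested, Tor1aip1 at the 61.0th, Syne1 at the 59.9th, Lemd3 at the 49.2nd, Syne2 at the 42.5th, Sun1 at the 37.7th, Ankle2 at the 29.1st, Sun2 at the 13.5th, Banf1 at the 9.88th and Lemd2 at the 4.73rd. The libraries of Tor1aip1 (0.169 to 0.231 per bin) and Syne1 (0.180 to 0.229) overlapped, and from Sun1 downwards each gene overlapped the next, so those neighbours in the order do not differ beyond their spread. Sun1 held 0.127 to 0.143, Ankle2 0.0914 to 0.128, Sun2 0.0554 to 0.101, Banf1 0.0372 to 0.0977 and Lemd2 0.0485 to 0.0824. The 3 Zmpste24 libraries, at 0.331 to 0.379, stood above those of all other members.

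**Figure D1:**
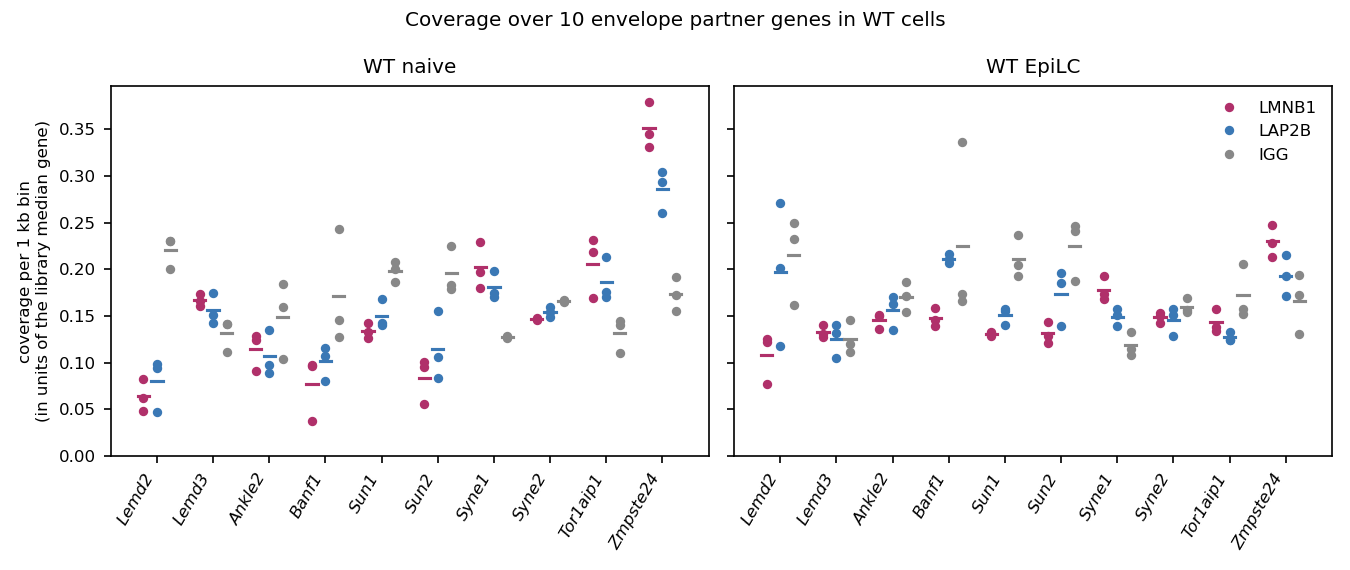
Coverage per 1 kb bin in WT naive (left) and EpiLC (right) libraries, in units of each library's median gene, for LMNB1, LAP2B and IGG. Points are libraries, 3 per group, and short lines are means; naive Zmpste24 is highest in LMNB1 (mean 0.352) and naive Lemd2 lowest (0.0645), while the naive IGG means lie between 0.128 and 0.221.

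Against IGG, naive WT LMNB1 was called different at 8 of 10 members, beside 56.6% of all genes tested (30.7% higher and 25.9% lower). It was higher at Zmpste24 (log2 difference 1.01, adjusted p = 3.03e-08), Syne1 (0.66), Tor1aip1 (0.63) and Lemd3 (0.35), and lower at Lemd2 (-1.71, adjusted p = 2.04e-07), Sun2 (-1.21), Banf1 (-0.97) and Sun1 (-0.55). LAP2B against IGG was called at 7 members, beside 45.6% of all genes (24.7% higher and 20.9% lower). It was higher at Zmpste24 (0.71), Syne1 (0.50) and Tor1aip1 (0.49), and lower at Lemd2 (-1.45), Sun2 (-0.77), Ankle2 (-0.45) and Sun1 (-0.39). Dividing libraries by their mean took Tor1aip1 out of the calls for both antibodies (LMNB1 0.23, LAP2B 0.22) and turned Lemd3 in LMNB1 to -0.052. Lemd3 in LMNB1 was also not called with median-of-ratios factors (0.26) or with genes divided by the median of their chromosome (0.21), and the latter also took Tor1aip1 (0.33) and Ankle2 (-0.43) out of the LAP2B calls. Calls were also lost without 1 library: in LMNB1 that of Lemd3 without LMNB1 replicate 3 or IGG replicate 1 and that of Banf1 without LMNB1 replicate 1 or IGG replicate 2, and in LAP2B that of Tor1aip1 without LAP2B replicate 2 or IGG replicate 1 and that of Ankle2 without any 1 of 4 of the 6 libraries. These differences share the IGG libraries and are given side by side. In EpiLCs, LMNB1 against IGG was called at 5 members (44.3% of all genes, 24.7% higher and 19.6% lower), higher at Syne1 (0.59) and Zmpste24 (0.48) and lower at Lemd2 (-0.95), Sun2 (-0.74) and Sun1 (-0.68), and LAP2B against IGG at 2 (14.9% of all genes, 11.5% higher and 3.47% lower), Syne1 (0.34) and Sun1 (-0.48). The LAP2B call at Syne1 was lost without EpiLC WT LAP2B replicate 1 or 2 or EpiLC IGG replicate 1 or 2, and that at Sun1 without EpiLC IGG replicate 2, which left 1 or 0 calls. The LMNB1 call at Zmpste24 was lost without EpiLC IGG replicate 1 and with libraries divided by their mean (0.20), and that at Sun2 with genes divided by the median of their chromosome (-0.46), as was the LAP2B call at Syne1 (0.22). With libraries divided by their mean, 1 member was called higher and 7 lower for LMNB1 in EpiLCs, and 1 higher and 3 lower for LAP2B.

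In naive cells without lamins, LAP2B was higher than in WT over the GC-rich Lemd2, Banf1 and Sun2 and over Ankle2. It was lower over Syne1 and Zmpste24, with values on the relative scale unless stated. Mean naive TKO values were near naive WT IGG at Lemd2 (3.05, 3.53), Sun2 (3.89, 3.72), Ankle2 (4.53, 4.03) and Zmpste24 (7.49, 6.94). They went past it at Banf1 (1.28, 0.688) and Syne1 (57.7, 67.9). Naive QKO means went past IGG at each of these genes, with 5.63 at Lemd2, 8.89 at Sun2, 9.63 at Ankle2 and 4.26 at Zmpste24. Whether the TKO values are background was not tested. In TKO cells 7 of 10 members were called against WT (49.8% of all genes), 4 higher and 3 lower, where 21.7% of all genes were called higher and 28.1% lower. In QKO cells 8 were called (75.9% of all genes), 6 higher and 2 lower, where 31.7% were called higher and 44.2% lower. The median change of the members was 0.16 in TKO and 0.66 in QKO cells, beside -0.11 and -0.28 for all genes tested. In LBRKO cells 6 members were called (56.8% of all genes), 5 higher and 1 lower, where 28.5% were called higher and 28.3% lower, with a median of 0.53 beside 0.03. On the spike-in scale the members' median was 0.72 in LBRKO, -0.46 in TKO and -0.51 in QKO cells. The medians of all genes on that scale were 0.21, -0.63 and -1.19. All comparisons with WT of a stage share its 3 WT libraries. LBRKO and TKO cells were also compared directly, after their values had been seen. In naive cells that difference was called at 8 members (37.5% of all genes, 21.3% higher and 16.3% lower), 5 higher and 3 lower in LBRKO.

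**Figure D2:**
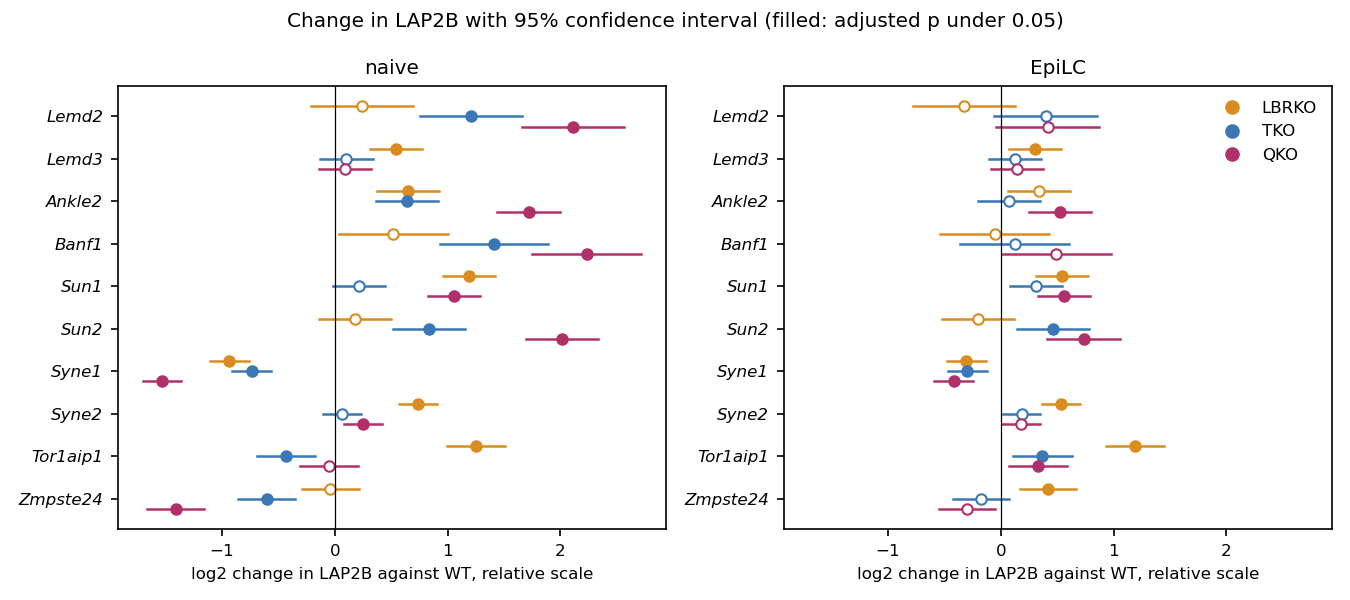
Log2 change in LAP2B against WT of the same stage on the relative scale, with 95% confidence intervals from limma, in naive cells (left) and EpiLCs (right). Filled points had an adjusted p under 0.05. The unfilled naive points of Zmpste24 in LBRKO and Tor1aip1 in QKO change sign with another scaling that divides out total coverage. Signs turned on the spike-in scale, which is not drawn, at Lemd3, Sun1 and Syne2 in naive TKO and QKO cells. They also turned at Lemd3, Ankle2, Banf1 and Syne2 in TKO EpiLCs, and every member was below 0 in QKO EpiLCs. Naive QKO points reach 2.23 at Banf1 and -1.53 at Syne1, and EpiLC QKO points stay between -0.42 and 0.73.

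Lemd2, whose protein recruits membrane-remodelling factors to the reforming envelope, had relative LAP2B values of 1.51, 0.750 and 1.58 in naive WT and of 2.72, 4.18 and 2.25 in naive TKO libraries. In naive QKO libraries they were 6.28, 5.44 and 5.17, and in naive LBRKO libraries 0.885, 2.22 and 1.56. TKO and QKO libraries all lay above WT, and LBRKO overlapped it. The change was 1.21 ± 0.23 (SE; adjusted p = 1.51e-05) in TKO, 2.11 ± 0.23 (adjusted p = 4.94e-12) in QKO and 0.24 (95% interval -0.21 to 0.69) in LBRKO cells, which turned to -0.079 without WT replicate 2 and to -0.046 without LBRKO replicate 2, and was called at 0.57 without LBRKO replicate 1. LBRKO was below TKO by -0.97 (adjusted p = 0.000492). These rest on 42 to 753 reads per LAP2B library.

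Banf1 is the shortest member, with 26 to 287 reads per LAP2B library. Its relative values were 0.322, 0.464 and 0.431 in naive WT, 0.959, 1.78 and 1.095 in TKO and 2.39, 1.78 and 2.71 in QKO libraries. No TKO or QKO library overlapped WT, and the changes were 1.41 ± 0.24 (SE; adjusted p = 2.79e-06) and 2.23 ± 0.24 (adjusted p = 5.45e-12). In LBRKO libraries it was 0.466, 0.590 and 0.857, all above WT, a change of 0.52 (95% interval 0.04 to 1.00) that missed the threshold (adjusted p = 0.0597) and passed it with the smaller pseudocount, with 2 of the other scalings or without LBRKO replicate 1.

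Ankle2, which acts in the dephosphorylation of BAF at mitotic exit, had 2.62, 2.41 and 3.66 in naive WT libraries, 4.08, 5.33 and 4.24 in LBRKO and 5.103, 3.98 and 4.51 in TKO. In QKO libraries it reached 10.4, 8.93 and 9.61. Every mutant library lay above every WT library. The change was 0.65 in LBRKO, 0.64 in TKO and 1.72 ± 0.14 (SE; adjusted p = 2.04e-16) in QKO cells. The direct difference between LBRKO and TKO at Ankle2 was 0.00 (95% interval -0.27 to 0.28).

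Lemd3, which restrains SMAD signalling, held 9.96, 8.63 and 8.11 in naive WT and 14.2, 12.3 and 12.4 in LBRKO libraries, without overlap (0.54, adjusted p = 8.35e-05). Its changes in TKO (0.10) and QKO cells (0.09) were not called, and both passed the threshold with libraries divided by their mean (0.43 in each), the QKO change also with median-of-ratios factors (0.38) and by edgeR on recovered reads (0.31). On the spike-in scale the TKO change was -0.51 and not called, and the QKO change was -1.07 and called. The difference between LBRKO and TKO was 0.44 (adjusted p = 0.0019), and missed the threshold with libraries divided by their mean (adjusted p = 0.0824).

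Sun2, of the inner-membrane side of the LINC complex, had relative LAP2B of 1.60, 2.02 and 2.95 in naive WT and 2.02, 2.33 and 3.01 in LBRKO libraries, which overlapped. It stood at 3.58, 4.32 and 3.77 in TKO and 9.59, 8.53 and 8.54 in QKO libraries, all above WT. The changes were 0.18 (95% interval -0.14 to 0.50) in LBRKO, with -0.011 without WT replicate 1 and a call at 0.41 without WT replicate 3, 0.84 (adjusted p = 1.9e-05) in TKO and 2.01 ± 0.16 (SE; adjusted p = 1.49e-16) in QKO cells.

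Sun1, its paralog, showed another order. Naive WT libraries held 7.26, 7.18 and 8.60, TKO libraries 8.60, 10.1 and 8.14, LBRKO libraries 19.4, 15.7 and 17.9, and QKO libraries 17.3, 14.5 and 16.5. LBRKO and QKO libraries were all above WT and TKO libraries, while TKO overlapped WT. The change was 1.19 ± 0.12 (SE; adjusted p = 7.79e-13) in LBRKO, 1.06 ± 0.12 (adjusted p = 7.27e-12) in QKO and 0.22 (95% interval -0.02 to 0.45) in TKO cells. The TKO change passed the threshold under all 3 other scalings (0.28 to 0.54) and without WT replicate 3. The direct difference between LBRKO and TKO was 0.98 at Sun1 and -0.66 at Sun2 (adjusted p = 6.93e-10 and 0.000773).

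The nesprin genes moved apart. Syne1, the longest member, held 93.1, 105 and 90.9 in naive WT and 52.5, 49.2 and 49.4 in LBRKO libraries. It held 58.9, 56.1 and 58.2 in TKO and 30.2, 38.1 and 31.9 in QKO libraries. All 9 mutant libraries lay below WT, by -0.93 ± 0.09 (SE; adjusted p = 1.58e-13), -0.74 ± 0.09 (adjusted p = 5.48e-10) and -1.53 ± 0.09 (adjusted p = 2.44e-22). Syne2 went from 47.0, 43.9 and 45.4 in naive WT to 80.3, 70.9 and 76.9 in LBRKO libraries, a rise of 0.74 ± 0.08 (adjusted p = 8.06e-11). In TKO cells its change was 0.07 (95% interval -0.10 to 0.23), called at 0.40 with libraries divided by their mean and at 0.23 with genes divided by the median of their chromosome, and in QKO cells 0.25 (adjusted p = 0.00628), with 53.3, 52.9 and 55.8 in the libraries.

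Tor1aip1 had the largest rise of the members in naive LBRKO cells and the opposite sign in TKO cells. It held 5.81, 7.05 and 5.62 in WT and 17.1, 11.9 and 15.7 in LBRKO libraries, which did not overlap. TKO libraries held 4.59, 5.08 and 3.96, all below WT, and QKO libraries 5.15, 6.72 and 6.00, which overlapped it. The change was 1.25 ± 0.13 (SE; adjusted p = 5.46e-12) in LBRKO, -0.43 ± 0.13 (adjusted p = 0.00462) in TKO and -0.05 (95% interval -0.31 to 0.21) in QKO cells, and LBRKO differed from TKO by 1.68 (adjusted p = 7.89e-16). With libraries divided by their mean the TKO value was -0.10 and not called, and the QKO value turned to 0.29 and was called. The QKO value was also above 0 under the other scalings that divide out total coverage, with edgeR and without WT replicate 2 or QKO replicate 1. On the spike-in scale the TKO value was -1.04 and the QKO value -1.20, both called.

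Zmpste24, the member with most LMNB1 in WT, was lower in TKO and QKO cells. It held 12.2, 11.7 and 10.4 in naive WT and 13.6, 8.88 and 11.3 in LBRKO libraries. TKO libraries held 8.01, 6.68 and 7.79, and QKO libraries 4.18, 4.96 and 3.63. The LBRKO libraries spread on both sides of WT, and TKO and QKO lay below it. The change was -0.04 (95% interval -0.29 to 0.21) in LBRKO, with a sign that depends on the scaling and on single libraries, -0.60 ± 0.13 (SE; adjusted p = 7e-05) in TKO and -1.41 ± 0.13 (adjusted p = 8.43e-15) in QKO cells, and LBRKO differed from TKO by 0.57 (adjusted p = 0.000238).

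**Figure D3:**
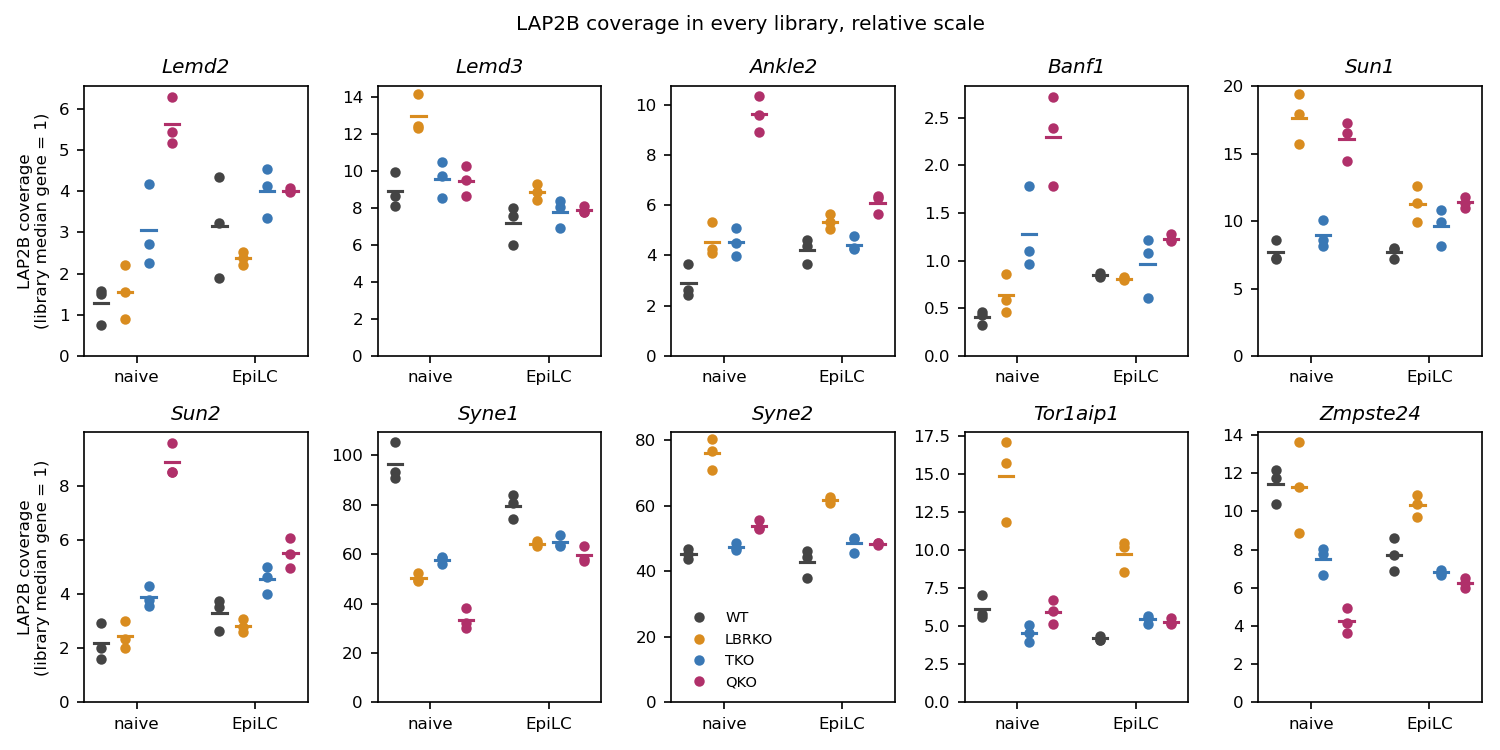
LAP2B coverage of each member in all 24 LAP2B libraries on the relative scale (linear axes from 0, where 1 is the library's median gene), by stage and genotype. Points are libraries and lines are means of 3; naive QKO means stand highest at Lemd2, Ankle2, Banf1 and Sun2 and lowest at Syne1 and Zmpste24, and LBRKO means stand highest at Syne2 and Tor1aip1 at both stages.

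Of the other 34 genes of these pathways, from 5 lists (LEM domain and BAF, LINC, torsins, lamin maturation, and lamins with other inner membrane proteins), 21 were called higher and 2 lower in naive LBRKO cells. In TKO cells 20 were higher and 3 lower, and in QKO cells 24 and 4. The shares of all genes on the relative scale are those given above. The median changes of the 34 were 0.52, 0.62 and 1.63, beside 0.03, -0.11 and -0.28 for all genes. On the spike-in scale LBRKO cells had 20 called higher and 1 lower (28.3% and 18% of all genes). TKO cells had 5 higher and 9 lower (2.38% and 47.6%), and QKO cells had 17 higher and 12 lower (10.1% and 65.4%). Medians on that scale were 0.71, 0.02 and 0.51 beside 0.21, -0.63 and -1.19 for all genes. By list on the relative scale, the naive QKO medians were 1.90 for 6 torsin genes, 1.51 for 11 genes of lamins and other inner membrane proteins, 1.28 for 4 of lamin maturation, 1.24 for 6 of the LINC complex and -0.04 for 7 of the LEM domain and BAF list. Those 11 include the knocked-out genes Lmna, Lmnb1, Lmnb2 and Lbr, where the part of the edit in the coverage was not tested. In naive WT cells 23 of the 34 had less LMNB1 than IGG and 5 more, where 25.9% and 30.7% of all genes did. The lists and members were chosen with earlier results of these data known, so these counts are descriptions.

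QKO and TKO cells differ by the receptor. In naive cells QKO minus TKO was called at 8 members (53.8% of all genes, 24.3% higher and 29.6% lower), higher at Sun2 (1.17), Ankle2 (1.08), Lemd2 (0.90), Sun1 (0.84), Banf1 (0.82) and Tor1aip1 (0.38), and lower at Zmpste24 (-0.81) and Syne1 (-0.79). Tor1aip1 lost its call without TKO replicate 3 or QKO replicate 2, and Banf1 with genes divided by the median of their chromosome (0.42). QKO minus TKO was fitted on the relative scale only. On the spike-in scale the naive changes against WT at Tor1aip1 were -1.04 in TKO and -1.20 in QKO cells. In EpiLCs the same limma contrast called 1.2% of all genes (0.887% higher and 0.311% lower) and 0 members, with 2 at an unadjusted p under 0.05, no other tool was run there, and the members' changes lay between -0.12 and 0.45. QKO is 1 clone derived from TKO, so clone and receptor loss cannot be told apart.

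The paper set LAP2B aside as a measure of lamina-associated domains in mutant EpiLCs. In WT EpiLCs it found LAP2B signal both within and outside those domains, judged against LMNB1. EpiLCs lacking the receptor had more LAP2B than WT over Tor1aip1, Sun1 and Syne2. In LBRKO EpiLCs 6 members were called (23.7% of all genes, 13.3% higher and 10.3% lower), namely Tor1aip1 (1.19 ± 0.13 SE, adjusted p = 2.22e-10), Sun1 (0.54), Syne2 (0.54), Zmpste24 (0.42) and Lemd3 (0.31) higher and Syne1 (-0.31) lower. Tor1aip1 held 4.11, 4.40 and 4.11 in WT and 10.5, 10.2 and 8.55 in LBRKO libraries. The Lemd3 call (adjusted p = 0.046) was lost under every 1 of the 3 other scalings and with edgeR, and without any 1 of 5 of the 6 libraries, and the Zmpste24 call without WT replicate 3 or LBRKO replicate 1.

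In QKO EpiLCs 5 members were called (36% of all genes, 16.9% higher and 19.1% lower), with Sun2 (0.73), Sun1 (0.56), Ankle2 (0.53) and Tor1aip1 (0.33) higher and Syne1 (-0.42) lower. The genes called higher were below 0 and not called on the spike-in scale: Sun2 (-0.10), Sun1 (-0.28), Ankle2 (-0.31) and Tor1aip1 (-0.51). The median of all genes there was -0.73. With libraries divided by their mean 8 members were called, with Lemd3 (0.28), Banf1 (0.62) and Syne2 (0.32) added as higher. Syne2 was also called with median-of-ratios factors (0.21), with genes divided by the median of their chromosome (0.29), by edgeR on recovered reads (0.21) and without WT replicate 2 (0.24). Zmpste24 was called lower with the chromosome medians (-0.40) and without WT replicate 3 (-0.38). Sun2 held 2.65, 3.74 and 3.51 in WT and 6.10, 5.48 and 4.98 in QKO libraries, without overlap. The Tor1aip1 call was lost without WT replicate 1 or 3 and without any 1 QKO library. Lemd2 held 1.89, 3.22 and 4.34 in WT and 4.07, 3.99 and 3.98 in QKO EpiLCs, a change of 0.41 (95% interval -0.04 to 0.87) with WT libraries on both sides, which was called at 0.68 without WT replicate 3. In TKO EpiLCs 3 members were called (18.3% of all genes, 7.51% higher and 10.8% lower), Sun2 (0.46), Tor1aip1 (0.37) and Syne1 (-0.30), and none of them without WT replicate 1 or without TKO replicate 2. Without TKO replicate 1 the count was 1, a call at Sun1. The Tor1aip1 call was lost without any 1 of 5 of the 6 libraries. LBRKO minus TKO in EpiLCs was called at 5 members (24.7% of all genes, 14.7% higher and 10.1% lower), higher at Tor1aip1 (0.82), Zmpste24 (0.59) and Syne2 (0.35) and lower at Lemd2 (-0.72) and Sun2 (-0.66), where Lemd2 lost its call without LBRKO replicate 2 or TKO replicate 1.

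Whether an effect differed between the stages was tested directly, as the change in EpiLCs minus the change in naive cells. LAP2B in WT EpiLCs differed from IGG at fewer genes than in naive WT cells (14.9% against 45.6%). The part of this in the stage differences was not tested. Neither was that of the LAP2B signal the paper found outside lamina-associated domains in WT EpiLCs. For QKO, 7 members were called (46.4% of all genes, 26.2% higher and 20.2% lower), and in each the EpiLC change was the smaller in size. The rise was less by 1.74 at Banf1, 1.70 at Lemd2, 1.28 at Sun2, 1.19 at Ankle2 and 0.50 at Sun1 on the log2 scale, and the fall was less by 1.12 at Syne1 and 1.11 at Zmpste24. For TKO, 3 were called (9.43% of all genes, 5.3% higher and 4.13% lower): Banf1 (-1.29), Tor1aip1 (0.80), whose change went from -0.43 to 0.37, and Syne1 (0.44). For LBRKO, 2 were called (20.1% of all genes, 10.7% higher and 9.35% lower), Sun1 (-0.65) and Syne1 (0.63), and at Tor1aip1 the difference was -0.06 (95% interval -0.43 to 0.30). The TKO count was 5 without naive WT replicate 3, Banf1 lost its TKO call without EpiLC TKO replicate 2, and the LBRKO count was 4 without naive WT replicate 3, naive LBRKO replicate 1 or EpiLC WT replicate 1. Syne1 lost its TKO call with libraries divided by their mean (0.22) and without naive WT replicate 2, EpiLC WT replicate 3 or EpiLC TKO replicate 3.

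In WT cells themselves the members also moved between the stages. LAP2B was called at 8 members (32.4% of all genes, 15.2% higher and 17.2% lower), higher in EpiLCs at Lemd2 (1.22), Banf1 (0.91), Sun2 (0.60) and Ankle2 (0.54), and lower at Zmpste24 (-0.56), Tor1aip1 (-0.53), Lemd3 (-0.31) and Syne1 (-0.28). Banf1 went from 0.322, 0.464 and 0.431 in naive to 0.827, 0.868 and 0.843 in EpiLC WT libraries, with no overlap, while those of Ankle2 and Sun2 overlapped. The Lemd3 and Syne1 calls were lost with libraries divided by their mean (-0.10 and -0.06), and also without naive WT replicate 2 or EpiLC WT replicate 3, Lemd3 also without naive WT replicate 1. Sun2 lost its call without naive WT replicate 1. LMNB1 was called at 4 members (13.6% of all genes, 6.14% higher and 7.46% lower), Lemd2 (0.69) and Sun2 (0.65) higher and Tor1aip1 (-0.50) and Zmpste24 (-0.61) lower. The LMNB1 count was 1 with genes divided by the median of their chromosome, 1 without naive replicate 1 or EpiLC replicate 1 or 3, 2 without naive replicate 3, and 5 without naive replicate 2. IGG was called at 0 members (0.502% of all genes, 0.0753% higher and 0.426% lower) by limma, with 1 at an unadjusted p under 0.05, and no other tool was run there.

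The direction of several changes depends on the scale. On the spike-in scale the median of all genes changed by 0.21 in naive LBRKO, -0.63 in TKO and -1.19 in QKO cells. Values on this scale are coverage already divided by the reads of each library, times the yeast factor. The sizes of these medians therefore depend on how that factor is applied. Several members' calls moved when it was put on recovered reads, as given below. In naive QKO cells 9 members were called on that scale (75.5% of all genes, 10.1% higher and 65.4% lower), higher at Banf1 (1.15), Lemd2 (0.98), Sun2 (0.86) and Ankle2 (0.57), and lower at Syne1 (-2.70), Zmpste24 (-2.55), Tor1aip1 (-1.20), Lemd3 (-1.07) and Syne2 (-0.92), while Sun1 stood at -0.10. Sun1 and Syne2 were thus called higher on the relative scale and not on this one, and Syne2 was called in opposite directions. Ankle2 lost its spike-in call without WT replicate 1 or 2 or QKO replicate 1 or 3, and Sun2 without WT replicate 1.

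In naive TKO cells 6 were called on that scale (49.9% of all genes, 2.38% higher and 47.6% lower). They were higher at Banf1 (0.87) and Lemd2 (0.62) and lower at Syne1 (-1.36), Zmpste24 (-1.22), Tor1aip1 (-1.04) and Syne2 (-0.56). Sun2 (0.24) and Ankle2 (0.037), called higher on the relative scale, were not called on this one. Banf1 and Lemd2 lost their calls without WT replicate 1 or TKO replicate 2, and Syne2 without any 1 of 4 of the 6 libraries. Lemd2 also lost its call without WT replicate 2, with the yeast factor put on recovered reads (0.39) and with a pseudocount of 1 median (0.44). In naive LBRKO cells 6 were called (46.4% of all genes, 28.3% higher and 18% lower), the same members and directions as on the relative scale, from 1.45 at Tor1aip1 to -0.74 at Syne1, which was lost without WT replicate 2 and with the yeast factor put on recovered reads (-0.30). In EpiLCs, LBRKO had 1 call (9.24% of all genes, 5.65% higher and 3.58% lower), Tor1aip1 at 1.23, and 6, all higher, with the yeast factor put on recovered reads. QKO had 4 (55.8% of all genes, 0.117% higher and 55.7% lower), all lower: Syne1 (-1.27), Zmpste24 (-1.14), Lemd3 (-0.70) and Syne2 (-0.67), of which Lemd3 and Syne2 were lost without WT replicate 1 and, at -0.21 and -0.17, with that factor on the reads. TKO had 0 by limma (9.7% of all genes, 0.101% higher and 9.6% lower), with 1 at an unadjusted p under 0.05 and no other tool run, and 1 or 2 without WT replicate 2 or TKO replicate 1.

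In TKO and QKO cells the members' changes ran against their LMNB1 minus IGG difference in WT. Across the 10 members the Spearman correlation of the naive LMNB1 minus IGG difference with the LAP2B change was -0.94 in QKO, -0.93 in TKO and -0.09 in LBRKO cells. Across all 70381 genes it was -0.82, -0.70 and -0.60. With the EpiLC difference and changes it was -0.83 in QKO, -0.88 in TKO and 0.15 in LBRKO cells over the members. Over all genes the EpiLC values were -0.79, -0.75 and -0.28. The LMNB1 and IGG libraries are not among those of the LAP2B change. That change subtracts WT LAP2B, though, and the paper reports nearly the same domains for LMNB1 and LAP2B in naive WT cells. A negative correlation can therefore arise from the subtraction, and how much of it does was not tested. Genes are not independent replicates, and neighbouring genes share domains, so no p is given. The correlation of GC with the naive change was 0.92 in QKO, 0.87 in TKO and 0.05 in LBRKO cells over the members, and 0.57, 0.53 and 0.44 over the 70312 genes with a GC value. In EpiLCs it was 0.71, 0.60 and -0.22 over the members and 0.51, 0.50 and 0.17 over all genes with a value, and the part of GC in the changes was not tested.

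**Figure D4:**
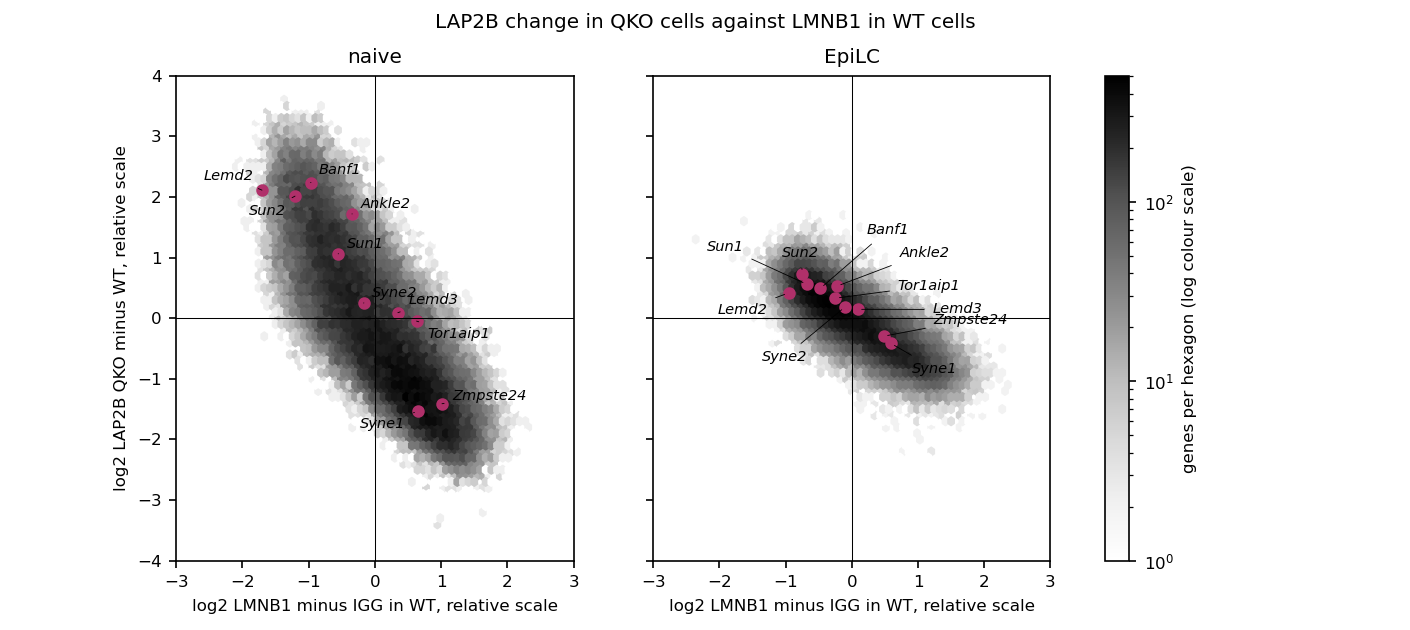
Log2 LAP2B change in QKO cells against the log2 difference of LMNB1 and IGG in WT cells of the same stage, both on the relative scale, in naive cells (left) and EpiLCs (right). Hexagons count all genes tested on a log colour scale and points are the 10 members; naive members run from Lemd2 (-1.71, 2.11) at upper left to Zmpste24 (1.01, -1.41) at lower right.

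On the relative scale, neighbours of several members were called in the member's direction in naive QKO cells, those of others mostly not. Of all genes tested, 31.7% were called higher and 44.2% lower there. All 104 tested genes within 500 kb of Banf1 that share no bin with it were called higher in naive QKO cells (median 2.27, Banf1 2.23), as were all 77 around Sun2 (median 2.07) and 61 of 63 around Lemd2 (median 1.47). Of the neighbours of Syne1, 10 of 13 were called lower (median -1.20), and of those of Zmpste24 31 of 48 (median -0.68, against -1.41 for the gene). Around Lemd3 8 of 41 were called higher and 5 lower, and around Syne2 18 of 38 higher and 4 lower. The spike-in scale, where 10.1% of all genes were called higher and 65.4% lower, changed these counts and, around some members, their direction. Higher were 93 of 104 around Banf1, 57 of 77 around Sun2 and 26 of 63 around Lemd2. Around Lemd3 0 of 41 were higher and 27 lower, and around Syne2 0 of 38 and 20 (median -0.68). Around Sun1 4 of 44 were higher and 13 lower, against 32 and 0 on the relative scale. The lower counts around Lemd3, Syne2 and Sun1 lay near or below the share of all genes. On the relative scale the values of Tor1aip1 and its surroundings differed: 22 of its 36 neighbours were called lower in QKO cells (median -0.63) where the gene was at -0.05, and in LBRKO cells its 1.25 lay beside a median of 0.75, with 26 of 36 called higher. In naive LBRKO cells 28.5% of all genes were called higher and 28.3% lower. There 38 of the 44 neighbours of Sun1 were called higher (median 0.93). The 77 neighbours of Sun2 had a median of 0.49 with 42 called higher, where Sun2 itself was at 0.18. Calls in both directions lay around Lemd2 (9 of 63 higher and 3 lower), Ankle2 (12 of 45 and 7), Lemd3 (14 of 41 and 4) and Zmpste24 (18 of 48 and 13) in naive LBRKO cells.

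**Figure D5:**
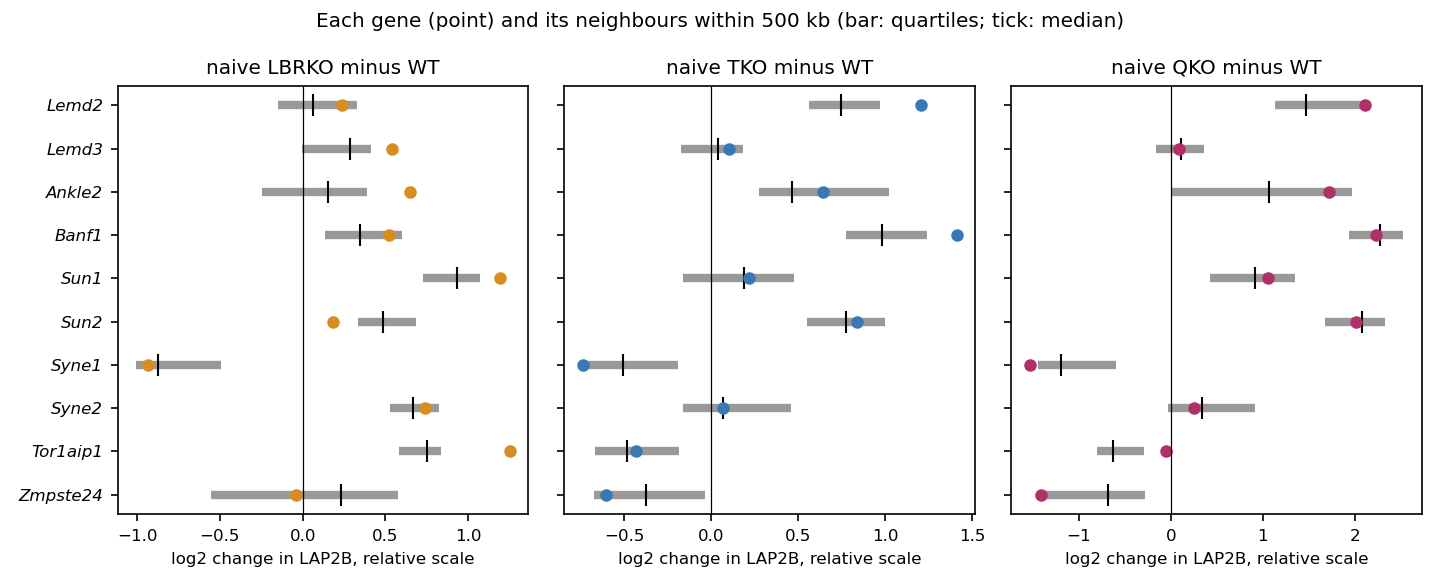
Log2 LAP2B change on the relative scale in naive LBRKO, TKO and QKO cells for each member (points) and for the tested genes within 500 kb that share no bin with it (grey bars, quartiles; ticks, medians). In QKO cells Banf1 (2.23) and Sun2 (2.01) sit on their neighbours' medians of 2.27 and 2.07, and Tor1aip1 (-0.05) lies above its neighbours' median of -0.63.

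Over the 24 LAP2B libraries, members were compared by their correlation, a description over points that share genotypes and libraries. The log2 relative values of Syne2 and Tor1aip1 had a Pearson r of 0.92, those of Banf1 and Sun2 0.89 and of Lemd2 and Sun2 0.87, while Sun2 and Zmpste24 had -0.94. Sun1 and Sun2 had 0.33 and Syne1 and Syne2 -0.45. Among genes tested of at least 10 bins, the one most like Sun1 was Ptch1 (r = 0.97), that most like Sun2 was Nfic (0.98) and that most like Zmpste24 was Elmo1 (0.98), each on another chromosome. For Lemd3 it was Nhsl1 (0.95), 102 Mb away on the same chromosome.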

How the data were processed

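Coverage of DNA by LAP2B, LMNB1 and IGG CUT&RUN was analysed in 36 libraries; 2 H3K9me3 samples and the tables of transposable elements were not used here. Per the study's methods and the submitters' processing notes, the authors aligned reads to mm39 with Bowtie2 2.3.5.1, used SAMtools 1.10, and computed with deepTools RPKM coverage in 1 kb bins without blacklisted regions, times a factor from yeast (sacCer3) spike-in reads. The deposited signal of a gene is the sum of this coverage over the bins it touches: genes lying within 1 shared bin had equal values (within 0.0001) in 343 of 343 sets. All values (100%) were whole multiples of a step per library (within 0.05 of a step), which gave whole reads.

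Genes in the lowest 0.1 by mean value were left out (70381 of 78202 kept). Linear models in limma 3.58.1 under R 4.3.3, with a moderated variance that follows the mean, were fitted on log2(value + 0.1 of the median) over all LAP2B libraries, over the LMNB1 or IGG libraries for stage, and over the WT libraries for antibodies, without a replicate block. P-values were Benjamini-Hochberg adjusted over all genes tested, and the code was tested on simulated data. edgeR 4.0.16 on recovered reads, other scalings, pseudocounts, filters, the block and leaving out each library were alternatives. The members, the gene lists and the plan to name all 10 members were chosen with earlier results of these data known. In many comparisons beyond the naive ones on the relative scale, values are given mainly for called members. Coordinates are from GENCODE M39, matched for 99.9% of genes.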

Additional observations from a re-analysis of the deposited data

Results flagged for a closer look

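The effect of a genotype on LAP2B differed between naive cells and EpiLCs, by an interaction contrast in limma, at 7 of 10 members for QKO, 3 for TKO and 2 for LBRKO, beside 46.4%, 9.43% and 20.1% of all genes. Values are the log2 change in EpiLCs minus that in naive cells, with p adjusted over all genes tested. In QKO cells they were -1.74 at Banf1 (adjusted p = 3.2e-05), -1.70 at Lemd2 (1.89e-05), -1.28 at Sun2 (6.06e-06), -1.19 at Ankle2 (1.44e-06), -0.50 at Sun1 (0.00967), 1.12 at Syne1 (1.87e-10) and 1.11 at Zmpste24 (8.54e-07). In TKO cells they were -1.29 at Banf1 (0.0108, and 0.062 without EpiLC TKO replicate 2), 0.80 at Tor1aip1 (0.00295) and 0.44 at Syne1 (0.0143), which was 0.22 and not called with libraries divided by their mean. In LBRKO cells they were -0.65 at Sun1 (0.00315) and 0.63 at Syne1 (0.000176). WT LAP2B itself moved between the stages at 8 members, and each interaction uses those WT libraries.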

How the results depend on the processing

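Over the settings other than leaving out a library, 841 of 879 recomputed values of called members kept direction and call, 37 missed the threshold and 1 turned; of counts of members called, 167 of 176 stayed within 1.5 times. With 1 library left out these were 758 of 840 and 156 of 174. With libraries divided by their mean, the count became 8 for EpiLC QKO (from 5), 4 for EpiLC LAP2B against IGG (from 2) and 8 for EpiLC LMNB1 against IGG (from 5), and signs turned at Zmpste24 in naive LBRKO (0.087), Tor1aip1 in naive QKO (0.29) and Lemd3 in naive LMNB1 against IGG (-0.052). Median-of-ratios factors gave 0.019 at Zmpste24 in naive LBRKO and 0.24 at Tor1aip1 in naive QKO. With genes divided by their chromosome's median, which removes whole-chromosome copy number, Tor1aip1 in naive QKO was 0.22 and Banf1 in EpiLC TKO -0.052, and counts were 1 for EpiLC TKO (from 3), 4 for the LBRKO stage difference (from 2) and 1 for WT LMNB1 between stages (from 4). edgeR on the recovered reads gave 0.17 at Tor1aip1 in naive QKO, and called 38397, 32459 and 52368 of all genes in naive LBRKO, TKO and QKO (limma 39949, 35052 and 53422), with 6, 7 and 9 members (limma 6, 7 and 8). When recovered reads took the yeast factor directly, EpiLC LBRKO had 6 calls (from 1) and EpiLC QKO 2 (from 4). The cause was not tested.

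Among LAP2B libraries on the relative scale, same-numbered replicates of different groups did not deviate together. Their median r was -0.0049 over 84 pairs (3 of them over 0.1), beside 0.0052 over 168 other pairs (7 of them over 0.1). No sign of pairing by number was thus seen in those libraries. The LMNB1 and IGG libraries were not checked in this way. The replicate block moved 1 of 26 counts beyond 1.5 times, WT LMNB1 between stages, from 4 to 2, and 3 of 128 called values missed the threshold.

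Leaving out each library in turn, counts ranged from 2 to 4 for the LBRKO stage difference, 2 to 5 for the TKO one, 0 to 3 for EpiLC TKO, 1 to 5 for WT LMNB1 between stages and 0 to 3 for EpiLC LAP2B against IGG, and on the spike-in scale 0 to 2 for EpiLC TKO and 2 to 5 for EpiLC QKO. Values that turned ranged from -0.079 to 0.57 (Lemd2), -0.011 to 0.41 (Sun2) and -0.19 to 0.12 (Zmpste24) in naive LBRKO, from -0.14 to 0.051 (Tor1aip1) in naive QKO, and from -0.024 to 0.14 (Ankle2) and -0.051 to 0.40 (Banf1) in EpiLC TKO. Banf1 had the fewest reads of the members, 14 to 287 per library.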
